A study of Homo sapiens with 16 samples.

Results

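The genes described here are 32 human genes of cholesterol and fatty acid synthesis, taken by gene symbol from the 23709 genes counted in every library. By role they were 7 genes of the mevalonate steps, 3 of the squalene and lanosterol steps, 8 of the steps from lanosterol to cholesterol, 5 regulators, 7 genes of fatty acid synthesis and 2 of sterol transport. The first 3 groups together are the 18 sterol enzymes. Every one of the 32 genes was found in all 16 libraries.

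The libraries were made from 2 human lung cell lines at passage 15 to 18. H1299 is a non-small cell lung carcinoma line and HBE a line of bronchial epithelial cells. H1299 cells carried either the plasmid pCMV-N-Flag-FLII, which expresses Flag-tagged FLII from a viral promoter (here "overexpression"), or the empty pCMV-N-Flag plasmid ("vector"), both brought in by lipid transfection. HBE cells were stably knocked down for FLII by a hairpin delivered with lentivirus ("knockdown"), or carried the control that the labels call NC and do not describe further. FLII encodes flightless I, a gelsolin-family protein that binds actin and acts as a coregulator of nuclear receptors. Polyadenylated RNA of each of the 4 cell states was sequenced as mRNA, as RNA of pelleted ribosome-nascent chain complexes (RNC), as cytosol RNA and as nuclear RNA. Each group was therefore 1 library, and the number of clones or cultures behind a library is not given in the labels.

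Cholesterol is built from acetyl-CoA through mevalonate, isopentenyl and farnesyl diphosphates, squalene and lanosterol. When sterols in the endoplasmic reticulum run low, the escort protein SCAP carries the precursors of the transcription factors SREBP1 and SREBP2 to the Golgi, where they are cut, and the freed fragments switch on the genes of sterol and fatty acid synthesis. INSIG1 and INSIG2 hold SCAP back when sterols are plentiful, and INSIG1 is itself an SREBP target. Oxysterols act in the opposite branch through liver X receptors, whose targets include ABCA1, the exporter of cholesterol from the cell, and SREBF1. Lung epithelium uses the fatty acid branch for membrane and surfactant lipids.

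The promoters of the 5 genes called in HBE mRNA (below) are printed to show how they differ in 1 short motif. The letters are those of the 250 bases before the start given by RefSeq (GRCh38.p14), read 5′ to 3′ on the gene's strand, and capitals mark CCAAT or its reverse complement ATTGG, the core bound by NF-Y, which assists SREBPs at many sterol-regulated promoters. HMGCS1 lies on the minus strand at chr5:43313413-43313662, MSMO1 on the plus strand at chr4:165327419-165327668, INSIG1 on the plus strand at chr7:155297628-155297877, INSIG2 on the plus strand at chr2:118088221-118088470 and ABCA1 on the minus strand at chr9:104928156-104928405.
HMGCS1: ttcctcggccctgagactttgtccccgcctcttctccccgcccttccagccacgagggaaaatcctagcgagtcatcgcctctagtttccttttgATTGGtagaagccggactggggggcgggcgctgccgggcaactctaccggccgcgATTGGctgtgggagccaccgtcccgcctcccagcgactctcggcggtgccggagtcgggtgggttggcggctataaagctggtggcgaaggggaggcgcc
MSMO1: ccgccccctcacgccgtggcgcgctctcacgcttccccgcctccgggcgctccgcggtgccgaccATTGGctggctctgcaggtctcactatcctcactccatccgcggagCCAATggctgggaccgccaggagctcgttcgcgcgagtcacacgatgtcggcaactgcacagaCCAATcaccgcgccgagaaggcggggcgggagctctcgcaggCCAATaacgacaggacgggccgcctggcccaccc
INSIG1: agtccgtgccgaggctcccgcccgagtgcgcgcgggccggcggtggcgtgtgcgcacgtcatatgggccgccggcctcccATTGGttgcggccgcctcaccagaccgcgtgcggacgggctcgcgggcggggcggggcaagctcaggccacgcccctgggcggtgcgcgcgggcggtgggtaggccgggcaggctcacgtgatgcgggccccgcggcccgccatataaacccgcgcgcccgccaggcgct
INSIG2: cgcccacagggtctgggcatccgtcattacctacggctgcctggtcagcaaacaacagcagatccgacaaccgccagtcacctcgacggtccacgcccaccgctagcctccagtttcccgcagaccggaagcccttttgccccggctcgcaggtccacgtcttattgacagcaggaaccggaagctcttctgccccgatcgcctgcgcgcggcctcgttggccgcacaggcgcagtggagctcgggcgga
ABCA1: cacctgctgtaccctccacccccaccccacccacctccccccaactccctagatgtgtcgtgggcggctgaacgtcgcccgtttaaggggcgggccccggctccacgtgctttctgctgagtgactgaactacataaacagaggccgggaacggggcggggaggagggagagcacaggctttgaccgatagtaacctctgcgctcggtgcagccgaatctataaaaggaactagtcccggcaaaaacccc
The HMGCS1 window held 2 matches, the MSMO1 window 4 and the INSIG1 window 1, while the INSIG2 and ABCA1 windows held 0. The other genes with a promoter entry did not all divide this way. PMVK, CYP51A1, ELOVL6, FADS1 and FADS2 held 0 matches with HBE mRNA folds above 0. SREBF1 and SCAP held 0 with folds below 0. SREBF2 and ACACA held matches with folds below 0, and the rest held matches with folds above 0. A link of motif and fold was not tested.

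RefSeq promoters were matched for 28 of the 32 genes (SC5DL under its current symbol SC5D), and not for ACAT2, FDFT1, SQLE and FASN. CCAAT or ATTGG stood in the 250 bases of 19 of the 28 (67.9%), against 37% of 27305 genes. The 27305 are all genes with a RefSeq promoter, not limited to those expressed in these cell lines. Where a gene had several promoter entries, any entry counted; with the first entry of each gene alone the shares were 60.7% and 33%. GGGCGG or its complement CCGCCC, the core bound by SP1, stood in 27 of the 28 (96.4%) against 46.2% of all genes. CACGTG, an E-box that SREBPs can also bind, stood in 4 of the 28 (14.3% against 7.73%). The longer SREBP-bound letters TCACNCCAC stood in 1 of the 28, SREBF2 (3.57% against 1.09%). All motifs were searched on both strands, and none of them contains another. A match describes the letters of this window and nothing about binding.

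The library totals ranged from 5943676 to 8344359 reads in mRNA, from 5914489 to 9259569 in cytosol, from 6295282 to 8201848 in nuclear RNA and from 26711771 to 38514467 in RNC. Levels are given as RPKM, reads scaled to the length of the gene and to the library total, which allows levels of different genes to be set side by side. Summed levels of several genes are given as CPM, reads scaled to a common library total. FLII itself stood at 143 RPKM in vector and 625 in overexpression mRNA of H1299, and at 75.3 in NC and 13.8 in knockdown mRNA of HBE. Its log2 folds were 2.14, 1.66 and 1.86 in mRNA, cytosol and nuclear RNA of H1299, and −2.58, −2.94 and −2.98 in HBE. In RNC it was 89.2 RPKM in the library labelled vector and 5.61 in that labelled overexpression, against the label, and 36.5 and 30.0 in those labelled NC and knockdown. The RNC libraries labelled H1299 overexpression and HBE knockdown also went against their labels in the genes typical of each line. The 159 genes typical of H1299 had a median of 0.672% of their H1299 vector cytosol level in the RNC library labelled H1299 overexpression, and the 184 genes typical of HBE had 92.1% of their HBE NC cytosol level there. In the RNC library labelled HBE knockdown the medians were 42.0% and 1.19%. By these medians the other RNC libraries went with their labels, at 36.3% and 0.369% in that labelled H1299 vector and 3.31% and 43.6% in that labelled HBE NC. Sums of 16 basal and epithelial genes did so too, at 53.4 and 2421 CPM. A sum of 7 mesenchymal genes did not, at 200 for H1299 vector RNC and 923 for HBE NC RNC. In HBE NC mRNA, cytosol and nuclear RNA the mesenchymal sum was 45.1, 8.96 and 46.8 CPM. The cause was not tested, and the RNC library labelled HBE NC carries this doubt. The mRNA, cytosol and nuclear results come first, and RNC results are given last, by label.

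In the 12 other libraries the summed level of 16 basal and epithelial genes was 8949 to 11940 CPM in HBE and 50.3 to 249.2 in H1299. The 3 hepatocyte genes ALB, APOA1 and APOC3, checked because liver is the classic tissue of cholesterol synthesis, summed to 1.28 CPM or less.

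In the control mRNA libraries the fatty acid branch held the highest levels per length. HBE NC mRNA had 446 RPKM of FASN, fatty acid synthase, 301 of SCD, the stearoyl-CoA desaturase, 224 of SREBF1, the gene of SREBP1, and 139 of DHCR7, which makes cholesterol from its last precursor. H1299 vector mRNA had 156 RPKM of SCD, 139.8 of FASN and 91.8 of FDPS, the farnesyl diphosphate synthase. At the other end ABCA1 stood at 1.22 and 1.52 RPKM and SC5DL, a sterol desaturase, at 2.89 and 3.24. The order was another in the fractions: in HBE NC nuclear RNA EBP (204 RPKM), which shifts the sterol double bond, and FDPS (199.9) led, and in H1299 vector cytosol FDPS (197) and MVD (140.4), the mevalonate diphosphate decarboxylase.

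**Figure D1:**
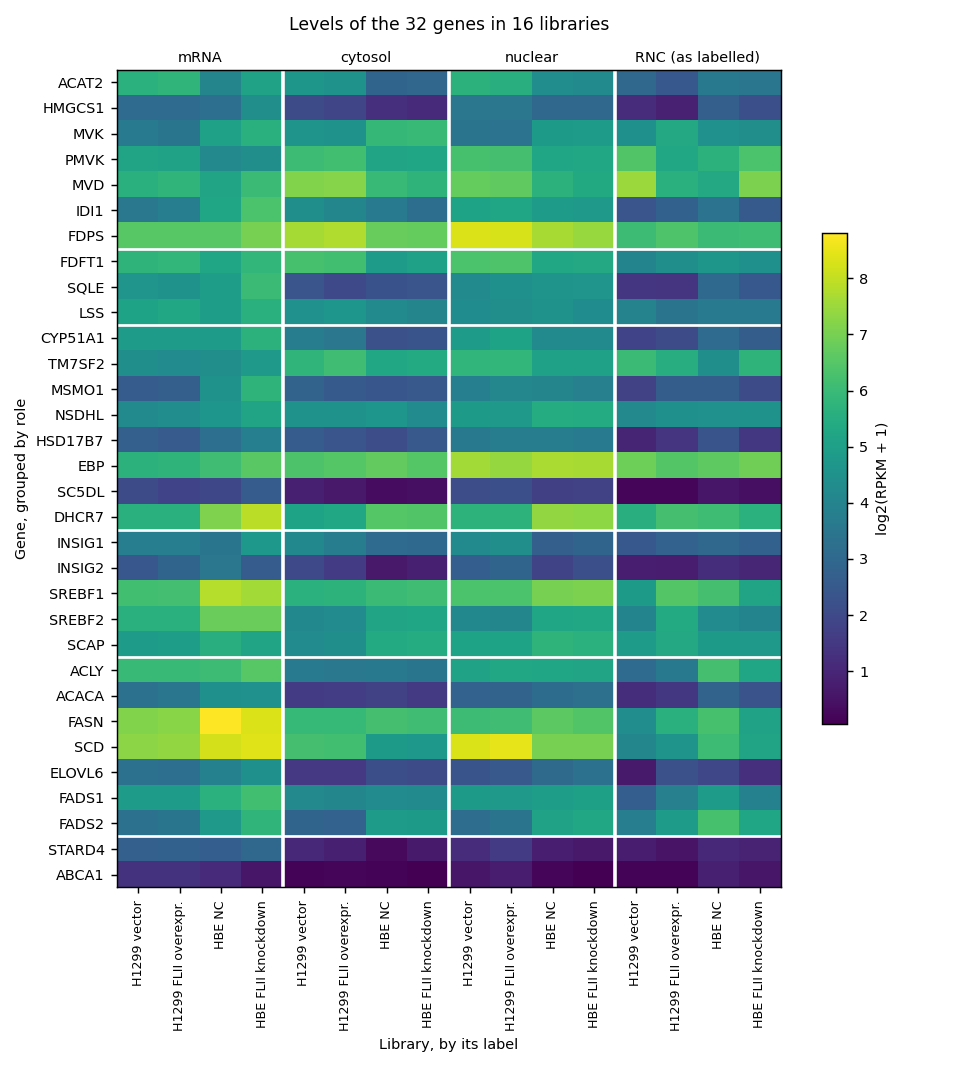
Level of each of the 32 genes in each of the 16 libraries, as RPKM on a colour scale in log2(RPKM + 1), from dark (low) to yellow (high), with genes grouped by role and libraries by fraction. FASN and SCD are the brightest cells of HBE NC mRNA, at 446 and 301 RPKM, and the rows of ABCA1 and SC5DL are dark throughout.

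Comparisons between libraries are given as log2 folds after TMM scaling, with a 95% interval that covers counting error alone. TMM sets most genes level, so a fold can depart from the ratio of the RPKM values, which are scaled to library totals. A gene was called when its fold was at least 2 in either direction (an absolute log2 fold of at least 1) and the interval excluded 0. With 1 library per group no spread between cultures could be measured and no p-value is given, so a fold compares these libraries. In bulk RNA fewer cells of a type and less RNA per cell cannot be told apart.

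Knockdown of FLII in HBE went with higher mRNA of the sterol enzymes as a group. All 18 had a log2 fold above 0 in the knockdown mRNA library, with a median of 0.61 against 0.01 over all 12635 genes compared. For 17 of the 18 the interval lay above 0, as it did for 19.5% of all genes, while 22.4% had an interval below 0. Their summed level was 1429.7 CPM in NC and 2458 in knockdown mRNA. The same 18 folds were above 0 with total-count scaling, with median-of-ratios scaling and after removal of the trend with GC content. Of the 32 genes 3 were called higher, against 2.02% of all genes, and 2 were called lower, against 2.93%. The genes were chosen with earlier results of these data known, so these shares are a description and no independent test.

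Among the mevalonate steps, HMGCS1, the synthase that makes HMG-CoA, was called higher. It had 8.45 RPKM in NC and 19.8 in knockdown mRNA, 1.37 and 1.14 in cytosol, and 7.18 and 7.14 in nuclear RNA, so that the 4 fractionated libraries showed no such step. From 381 and 810 reads its log2 fold in mRNA was 1.10 (95% interval 0.92 to 1.28), a 2.14-fold higher level. IDI1, the isopentenyl diphosphate isomerase, had 36.0 RPKM in NC and 78.7 in knockdown mRNA, 11.4 and 8.39 in cytosol, and 28.0 and 25.9 in nuclear RNA. Its mRNA fold of 1.99 lay just under the limit for a call (1.00, 0.86 to 1.14), and in cytosol the knockdown library was the lower one. ACAT2, the acetoacetyl-CoA thiolase that opens the pathway, had 15.3 RPKM in NC and 33.1 in knockdown mRNA, 6.32 and 6.66 in cytosol, and 19.3 and 17.4 in nuclear RNA, with an mRNA log2 fold of 0.97 (0.73 to 1.23).

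MVD had 35.0 RPKM in NC and 63.3 in knockdown mRNA, 62.5 and 53.1 in cytosol, and 49.9 and 40.6 in nuclear RNA, and its mRNA log2 fold was 0.72 (0.56 to 0.88). MVK, the mevalonate kinase, and FDPS were higher by 0.43 (0.27 to 0.60) and 0.35 (0.24 to 0.47). PMVK, the phosphomevalonate kinase, was the sterol enzyme whose interval spanned 0, at 0.12 (−0.18 to 0.42) from 182 and 196 reads. ACAT2 and MVK overlap neighbouring genes on the opposite strand in GENCODE (ACAT2 with TCP1 and SOD2, MVK with MMAB), and strand-specific counting is not stated, so reads of the neighbours cannot be told apart from theirs.

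The squalene steps were higher without a call. SQLE, the squalene epoxidase and a slow step of the pathway, had 30.1 RPKM in NC and 64.5 in knockdown mRNA, 3.85 and 4.17 in cytosol, and 23.2 and 23.7 in nuclear RNA, an mRNA log2 fold of 0.97 (0.84 to 1.10). FDFT1, the squalene synthase, had 0.48 (0.34 to 0.63), and LSS, which folds squalene epoxide into lanosterol, 0.58 (0.47 to 0.70).

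Of the 8 genes that turn lanosterol into cholesterol 1 was called, MSMO1, the C4-methyl sterol oxidase. MSMO1 had 22.4 RPKM in NC and 52.8 in knockdown mRNA, 4.25 and 4.70 in cytosol, and 15.5 and 13.6 in nuclear RNA. From 413 and 883 reads its mRNA log2 fold was 1.11 (0.94 to 1.28). CYP51A1, the lanosterol demethylase, followed at 0.72 (0.58 to 0.85), SC5DL at 0.68 (0.39 to 0.97) and DHCR7 at 0.63 (0.57 to 0.70). DHCR7, the most abundant of them in mRNA, had 139 RPKM in NC and 236 in knockdown mRNA, 90.3 and 85.4 in cytosol, and 167 and 160.2 in nuclear RNA. HSD17B7 and NSDHL, which work in C4 demethylation, had 0.50 and 0.40, EBP 0.34 and TM7SF2, a sterol reductase, 0.31, each with an interval above 0. HSD17B7 has a near-identical pseudogene and TM7SF2 overlaps VPS51 on the same strand, so the split of their reads is uncertain.

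The regulators divided. INSIG1 had the highest fold of the 32 genes in HBE mRNA: it had 10.1 RPKM in NC and 25.5 in knockdown mRNA, 7.70 and 7.32 in cytosol, and 5.57 and 6.36 in nuclear RNA. Its log2 fold was 1.21 (0.99 to 1.43) from 251 and 576 reads, a 2.31-fold higher level. INSIG2, which restrains SCAP as INSIG1 does but is not an SREBP target, went the other way, with 10.7 RPKM in NC and 5.10 in knockdown mRNA, 0.589 and 0.764 in cytosol, and 2.64 and 3.59 in nuclear RNA. Its mRNA log2 fold was −1.19 (−1.55 to −0.85) from 228 and 99 reads, against 0.41 (−0.12 to 0.96) in nuclear RNA. SREBF1 had a log2 fold of −0.36 (−0.40 to −0.31), SCAP of −0.50 (−0.61 to −0.39), and SREBF2, the gene of SREBP2, had −0.15 (−0.21 to −0.08), or −0.01 with total-count scaling. SREBF1 had 224 RPKM in NC and 192 in knockdown mRNA, 63.9 and 68.7 in cytosol, and 128 and 134 in nuclear RNA, so it stayed among the most abundant of the 32 genes.

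The fatty acid genes did not share 1 direction. FADS2, the delta-6 desaturase, had the highest fold, 0.91 (0.78 to 1.05), with 26.1 RPKM in NC and 53.7 in knockdown mRNA, 28.2 and 27.2 in cytosol, and 33.2 and 38.3 in nuclear RNA. ELOVL6, a fatty acid elongase, had 0.43, FADS1, the delta-5 desaturase, 0.40, and ACLY, which supplies cytosolic acetyl-CoA, 0.33, each with an interval above 0. FASN was lower at −0.58 (−0.60 to −0.55), with 446 RPKM in NC and 328 in knockdown mRNA, 73.6 and 68.7 in cytosol, and 96.1 and 84.3 in nuclear RNA. SCD had 0.02 (−0.01 to 0.06) and ACACA, the acetyl-CoA carboxylase, −0.11 (−0.21 to −0.01), or 0.02 with total-count scaling. In sum 4 of the 7 had an interval above 0 and 2 below 0, and their summed level was 6276 CPM in NC and 5774 in knockdown mRNA. FADS1 and FADS2 overlap each other on opposite strands in GENCODE. FADS2 also overlaps FEN1 on the same strand, so the split of its reads is uncertain.

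ABCA1 was called lower in HBE mRNA, at −1.42 (−2.00 to −0.89) from 106 reads in NC and 39 in knockdown. It had 1.22 RPKM in NC and 0.494 in knockdown mRNA, 0.097 and 0.043 in cytosol, and 0.156 and 0.058 in nuclear RNA, so that its level was low throughout. STARD4, a carrier of cholesterol between membranes, had 0.22 (−0.17 to 0.62). Both had fewer than 20 summed reads in HBE cytosol, and ABCA1 in nuclear RNA too.

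**Figure D2:**
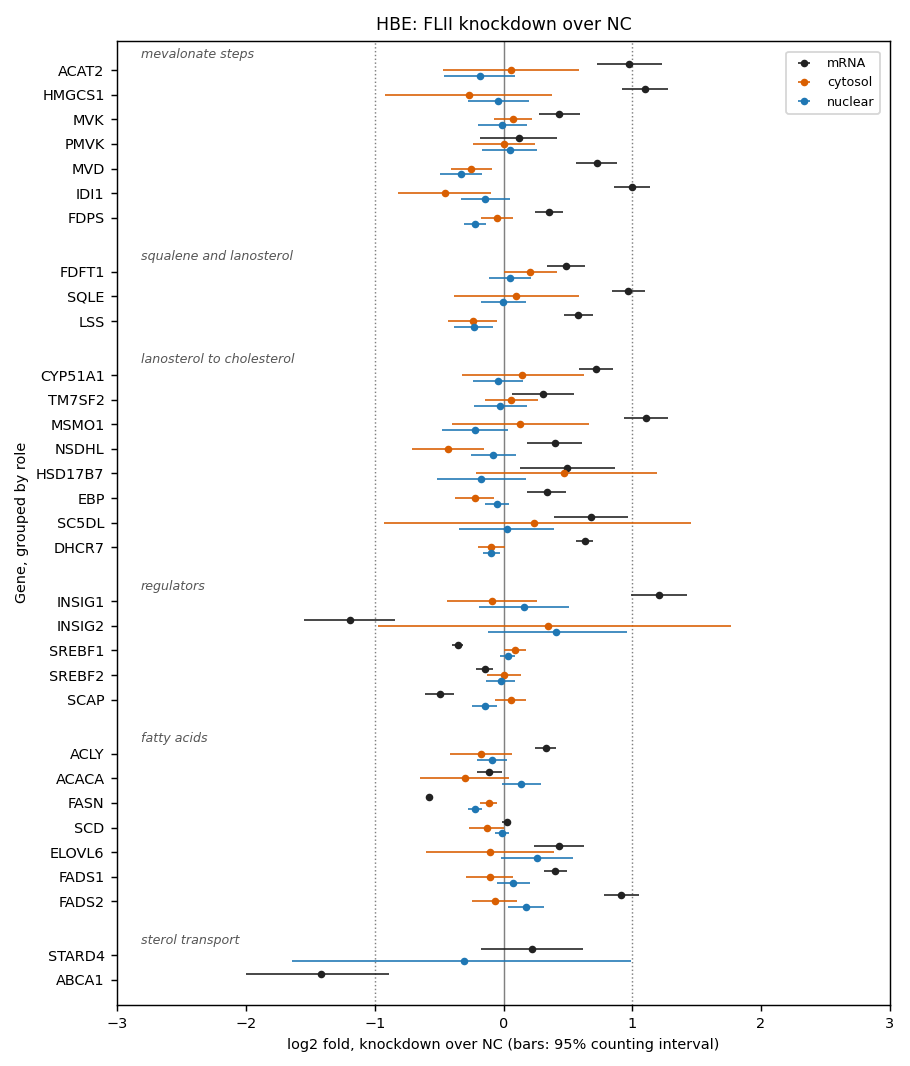
Log2 fold of knockdown over NC for each gene in HBE mRNA (black), cytosol (orange) and nuclear RNA (blue), grouped by role, with bars for the 95% counting interval and dotted lines at −1 and 1. All black points of the 18 sterol enzymes lie right of 0, while their orange and blue points lie between −0.46 and 0.47.

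Scaling and base composition moved with some of these calls. With total-count scaling the median of all genes in HBE mRNA was 0.14 in place of 0.01, and 9 of the 32 genes were called, with ACAT2 at 1.10, IDI1 at 1.13, SQLE at 1.10 and FADS2 at 1.04 added. Folds in HBE mRNA followed GC content with a Spearman correlation of −0.26 across all genes and −0.27 across the 32. After removal of that trend HMGCS1 and MSMO1 stood at 0.97 and 0.97 and were no longer called, FADS2 was called at 1.07, and the median of the 18 sterol enzymes was 0.61 again. On deposited RPKM values with 1 added, a call rested on the fold alone, without an interval. INSIG2 was then at −0.93 and ABCA1 at −0.57, both short of a call. ACAT2 (1.06), IDI1 (1.11), SQLE (1.07) and FADS2 (1.01) passed a log2 fold of 1, so that 7 genes were called.

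The 2 HBE mRNA libraries also differed in FN1, fibronectin, which stood at 31.8 CPM in NC and 805.6 in knockdown. It carried the summed level of the 7 mesenchymal markers, 45.1 in NC and 849.8 in knockdown mRNA. Of the 7, FN1, CDH2 and VIM reached 1 CPM in both libraries, while SPARC and ZEB1 were at 0 reads in NC and TWIST1 and ZEB2 at 0 in knockdown. VIM was 5.92 and 3.06 CPM, and the 16 basal and epithelial markers summed to 8949 and 9565. The 3 fibroblast collagen genes summed to 35.5 and 48.7, with COL3A1 at 0 reads in both. In cytosol the mesenchymal sum was 8.96 and 10.0 CPM, and in nuclear RNA 46.8 and 82.4. The part of these differences in the sterol gene folds was not tested.

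The cytosol and nuclear libraries of the same knockdown did not show the mRNA pattern. In HBE cytosol 30 of the 32 genes passed the minimum of 20 summed reads and 0 were called, against 0.625% of 10884 genes called higher and 0.625% called lower. Their median log2 fold was −0.06. Of the 18 sterol enzymes 0 had an interval above 0, as 7.93% of all genes had, and 5 had 1 below 0, against 6.43%: IDI1 (−0.46), NSDHL (−0.43), MVD (−0.25), LSS (−0.24) and EBP (−0.22). The 7 fatty acid genes had folds from −0.30 for ACACA to −0.07 for FADS2.

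In HBE nuclear RNA 31 of the 32 passed and 0 were called, against 0.550% and 0.323% of 12368 genes called higher and lower. Of the 18 sterol enzymes 15 had a fold below 0, with a median of −0.06, and 4 had an interval below 0, as 8.45% of all genes had: MVD (−0.33), LSS (−0.23), FDPS (−0.22) and DHCR7 (−0.09). None had an interval above 0, against 7.88% of all genes. The summed level of the sterol enzymes was 1803 CPM in NC and 1708 in knockdown nuclear RNA, and 1125 and 1074 in cytosol.

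The difference between the mRNA fold and the fraction's fold was then taken for each gene, over libraries that the 2 pairs do not share. Against nuclear RNA the difference was called higher for 6 of 31 genes, against 1.72% of 11873 genes: MSMO1 (1.33, 1.02 to 1.63), ACAT2 (1.16), HMGCS1 (1.14), IDI1 (1.14), MVD (1.05) and INSIG1 (1.05). INSIG2 was called lower (−1.60, −2.21 to −0.98), as 3.04% of all genes were. Of the 18 sterol enzymes 17 had an interval of this difference above 0, against 13.6% of all genes, and their median was 0.70. Against cytosol 3 of 30 genes were called higher, HMGCS1 (1.37), IDI1 (1.45) and INSIG1 (1.29), against 2.21% of 10606 genes. INSIG2 was the 1 called lower (−1.53, with 3.22% of all genes), and 14 of the 18 sterol enzymes had an interval above 0, against 11.4%. Both sets of differences contain the same mRNA folds, so neither is a separate check of the other. How mRNA was taken relative to cytosol and nuclear RNA is not given in the sources used here.

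**Figure D3:**
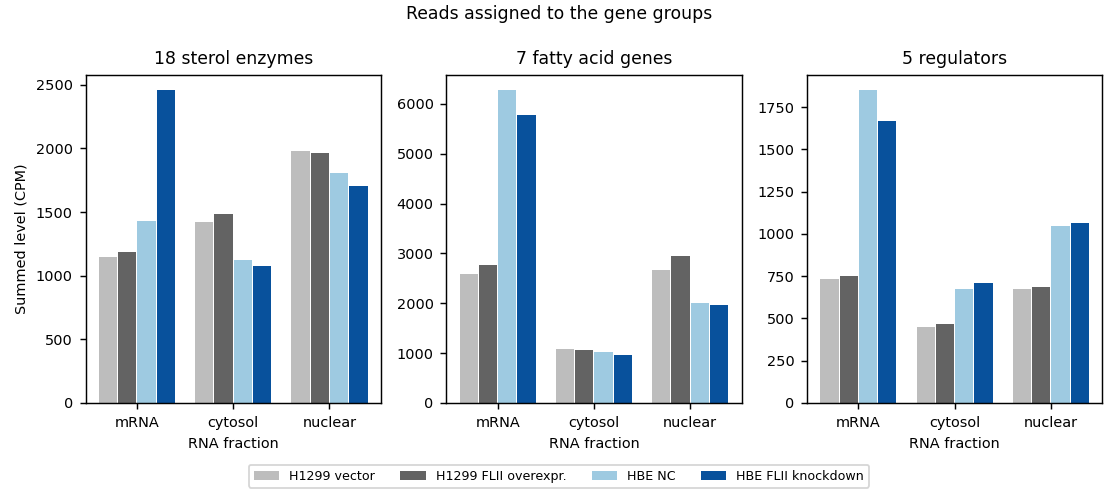
Summed level, in CPM, of the 18 sterol enzymes, the 7 fatty acid genes and the 5 regulators in each mRNA, cytosol and nuclear library, with 1 bar per library and an axis from 0. The sterol enzyme bars of HBE mRNA are 1430 in NC and 2458 in knockdown, and the other 5 pairs of sterol enzyme bars are nearly level.

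A further 58 genes of these pathways were counted beside the 32: 15 of SREBP handling and sterol-regulated degradation, 7 of liver X receptor signalling and export, 8 of the isoprenoid branch and 28 of further fatty acid and lipid steps. In HBE mRNA 57 passed the minimum, 0 were called higher and 2 were called lower. These were DGAT2, which makes triglycerides (−1.35, 70 reads in NC and 27 in knockdown), and STARD5, a lipid carrier (−1.04, 71 and 34 reads). Their median log2 fold was 0.07, with 0.25 for the isoprenoid branch and −0.22 for the liver X receptor genes. In HBE cytosol 52 passed and NPC1, the lysosomal cholesterol transporter, was called lower (−1.54, 19 and 7 reads). In HBE nuclear RNA 55 passed and STARD5 was called higher (1.21, 16 and 43 reads), opposite to mRNA.

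Overexpression of FLII in H1299 went with small differences in these genes. In H1299 mRNA all 32 passed and 0 were called, against 0.330% and 0.468% of 13033 genes called higher and lower, and the median log2 fold was 0.04. Of the 32 genes 6 had an interval above 0, as 7.14% of all genes had, and 0 below 0, against 5.75%. They were INSIG2 (0.52), ACACA (0.21), MVD (0.20), LSS (0.17), FASN (0.13) and SCD (0.10). Of the 5 genes called in HBE mRNA, INSIG2 had the highest fold of the 32 here, and the intervals of the other 4 spanned 0. HMGCS1 had 7.63 RPKM in vector and 7.59 in overexpression mRNA, 3.23 and 2.70 in cytosol, and 10.5 and 10.6 in nuclear RNA. INSIG1 had 12.8 RPKM in vector and 13.1 in overexpression mRNA, 16.5 and 12.8 in cytosol, and 17.4 and 19.9 in nuclear RNA. MSMO1 had 5.13 RPKM in vector and 5.54 in overexpression mRNA, 6.25 and 4.74 in cytosol, and 13.4 and 16.2 in nuclear RNA. The mRNA folds of these were 0.01 (−0.23 to 0.25), 0.05 (−0.20 to 0.30) and 0.13 (−0.33 to 0.59), and ABCA1 had 0.04 (−0.34 to 0.44). The summed sterol enzyme level was 1149 CPM in vector and 1187 in overexpression mRNA. INSIG2, ACACA and FASN had an mRNA interval above 0 in H1299 overexpression and below 0 in HBE knockdown, though ACACA was at 0.02 in HBE with total-count scaling. MVD and LSS had an mRNA interval above 0 in both, at 0.72 and 0.58 in HBE, and the HBE interval of SCD spanned 0. INSIG2 had 4.43 RPKM in vector and 6.31 in overexpression mRNA, 2.97 and 2.05 in cytosol, and 5.35 and 6.44 in nuclear RNA.

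In H1299 cytosol 31 of the 32 passed, ABCA1 falling short, and 0 were called, against 1.04% and 1.64% of 12527 genes. Of these 11 had an interval above 0, against 13.7% of all genes, with TM7SF2 (0.45), LSS (0.28), SCAP (0.25) and DHCR7 (0.23) the highest. IDI1 (−0.27) and INSIG1 (−0.30) were the 2 below 0, against 14.8%. Folds in this pair followed GC content, with a Spearman correlation of 0.52 across all genes and 0.79 across the 31, and the part of GC content in the folds was not tested beyond the removal of its trend. After that removal TM7SF2 stood at 0.33, LSS at 0.16 and SCAP at 0.13. The H1299 cytosol pair also differed in the 16 basal and epithelial markers, which summed to 50.3 CPM in vector, with 7 of them at 1 CPM or more, and to 221.2 CPM in overexpression, with 15 at 1 CPM or more. The 184 genes typical of HBE had a median of 0.173% of their HBE NC cytosol level in vector and 1.94% in overexpression cytosol. The part of these differences in the folds was not tested.

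In H1299 nuclear RNA all 32 passed and 0 were called, against 0.407% and 0.192% of 13031 genes. For 3 the interval lay above 0, CYP51A1 (0.22), ACLY (0.19) and SCD (0.15), against 5.79% of all genes. For 3 it lay below 0, EBP (−0.20), MVD (−0.12) and FDPS (−0.11), against 8.13%. Nuclear folds followed GC content in the direction opposite to cytosol, with a Spearman correlation of −0.26 across all genes and −0.61 across the 32. Of the 58 further pathway genes 1 was called in these 3 H1299 pairs, GPAM, which starts glycerolipid synthesis, in cytosol (−2.31, 18 reads in vector and 2 in overexpression).

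**Figure D4:**
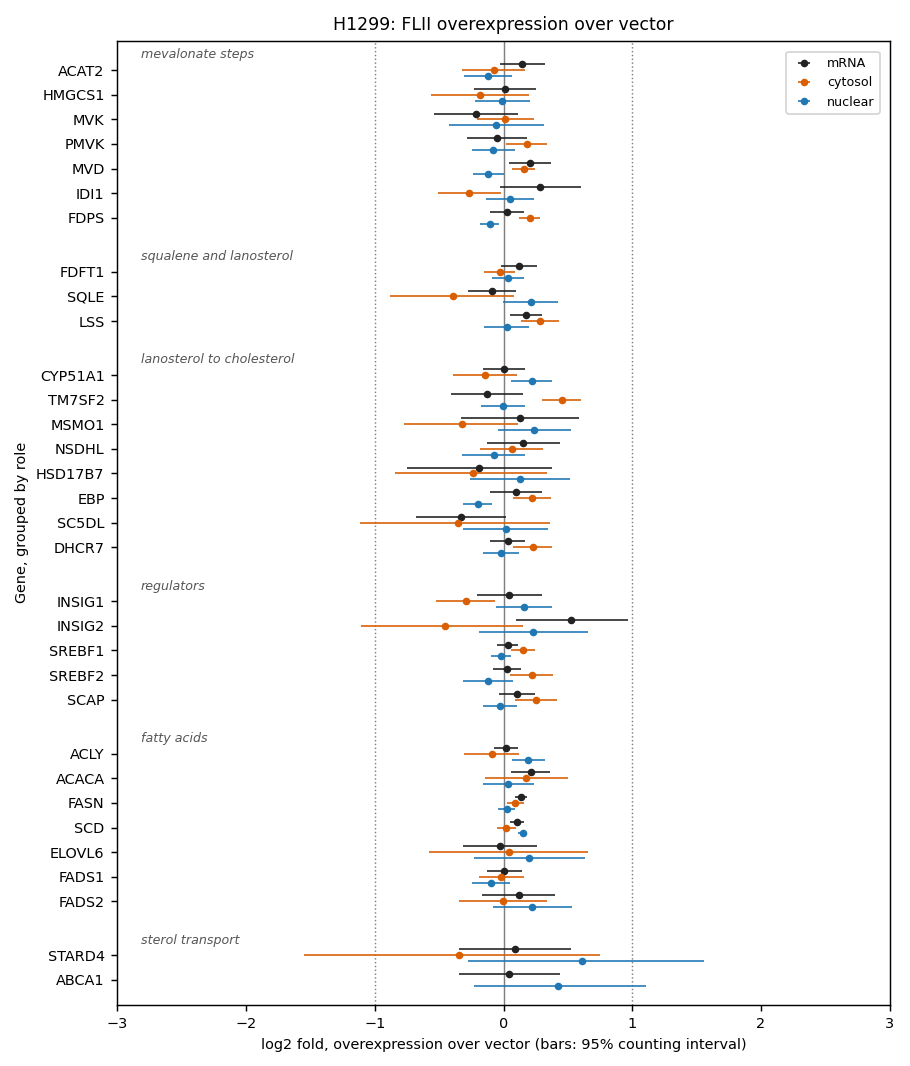
Log2 fold of overexpression over vector for each gene in H1299 mRNA (black), cytosol (orange) and nuclear RNA (blue), grouped by role, with bars for the 95% counting interval and dotted lines at −1 and 1. No point reaches a dotted line, and the widest bars belong to STARD4.

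The control libraries of the 2 lines gave more calls among the 32 genes than the FLII pair of the same fraction did in mRNA, cytosol and nuclear RNA. In mRNA 12 of the 32 were called lower in H1299 vector than in HBE NC, against 22.4% of all 13403 genes, and 1 was called higher, against 21.2%. The median was −0.72 against −0.01 over all genes. Among the 12 were 3 of the 5 regulators and 5 of the 7 fatty acid genes: SREBF1 (−1.93), SREBF2 (−1.48), INSIG2 (−1.53), FASN (−1.94), FADS2 (−1.75), ACACA (−1.48), SCD (−1.21) and FADS1 (−1.01). The other 4 were the sterol enzymes MSMO1 (−2.38), IDI1 (−2.00), DHCR7 (−1.81) and MVK (−1.73), and the 1 called higher was ACAT2 (1.41). With total-count scaling SCD (−0.94) and FADS1 (−0.74) were no longer called.

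In cytosol 4 of 31 were called higher in H1299, against 26.7% of 12700 genes, and 6 lower, against 22.2%. In nuclear RNA 4 of 32 were called higher, against 22.3% of 13220 genes, and 5 lower, against 23.1%. These shares are below those of all genes. In all 3 the same 5 genes were called alike: ACAT2 higher in H1299, and MVK, DHCR7, SREBF2 and FADS2 lower. FADS2 differed the most of these, at −1.75 in mRNA, −2.63 in cytosol and −2.27 in nuclear RNA, from 9.30, 6.28 and 8.12 RPKM in H1299 vector against 26.1, 28.2 and 33.2 RPKM in HBE NC. DHCR7 had −1.81, −1.89 and −1.95. Other genes changed side between fractions. SCD was called lower in H1299 mRNA but called higher in H1299 nuclear RNA (1.08), and INSIG2 was called lower in mRNA and higher in cytosol (1.83). MSMO1 and IDI1, far lower in H1299 mRNA, had 0.09 and 0.36 in cytosol. Total-count scaling moved the median of all genes to 0.25 in mRNA, 0.60 in cytosol and 0.21 in nuclear RNA, and ELOVL6, called lower in cytosol and nuclear RNA, was not called with it (−0.87 and −0.89). CYP51A1 (1.29), INSIG2 and STARD4 (1.65), called higher in cytosol, stood after removal of the GC trend at 0.53, 0.74 and 0.56, short of a call.

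Nuclear over cytosol folds showed the same few genes on each side in all 4 cell states. HMGCS1, SQLE, SC5DL, ACLY, ACACA and SCD were called higher in nuclear RNA each time, and MVK was called lower each time. In the order H1299 vector, H1299 overexpression, HBE NC and HBE knockdown, SQLE had 1.76, 2.26, 2.05 and 1.95. SC5DL had 1.81, 2.07, 2.40 and 2.19 and HMGCS1 1.36, 1.43, 1.85 and 2.07. SCD had 1.78, 1.80, 1.66 and 1.78, and MVK −1.57, −1.74, −1.60 and −1.69. In RPKM, SQLE was 4.16 in cytosol and 17.8 in nuclear RNA of H1299 vector, and 3.85 and 23.2 in HBE NC, while MVK was 22.9 and 9.66, and 57.5 and 27.5. These comparisons share their libraries with the FLII pairs.

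By count, 7 genes were called higher and 1 lower in H1299 vector, against 14.8% and 12.7% of all genes. In H1299 overexpression 11 and 2 were called, against 17.9% and 18.3%. In HBE NC 11 and 2 of 30 were called, against 22.8% and 17.0%, and in HBE knockdown 9 and 1 of 31, against 23.9% and 17.6%. The medians of the genes were 0.42, 0.30, 0.40 and 0.40. In all 4 the folds followed GC content, with Spearman correlations from −0.62 to −0.44 across all genes and from −0.75 to −0.57 across the pathway genes. After removal of that trend MVK was short of a call in all 4, between −0.83 (H1299 vector) and −0.69 (H1299 overexpression), and HMGCS1 in 3 of the 4 (0.93, 0.68 and 0.83 in H1299 vector, H1299 overexpression and HBE NC). ACACA was short in H1299 overexpression (0.84) and HBE NC (0.73). SQLE, SC5DL, ACLY and SCD were called in all 4 with the trend removed too. Total-count scaling moved the median of all genes to between 0.32 and 0.73.

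**Figure D5:**
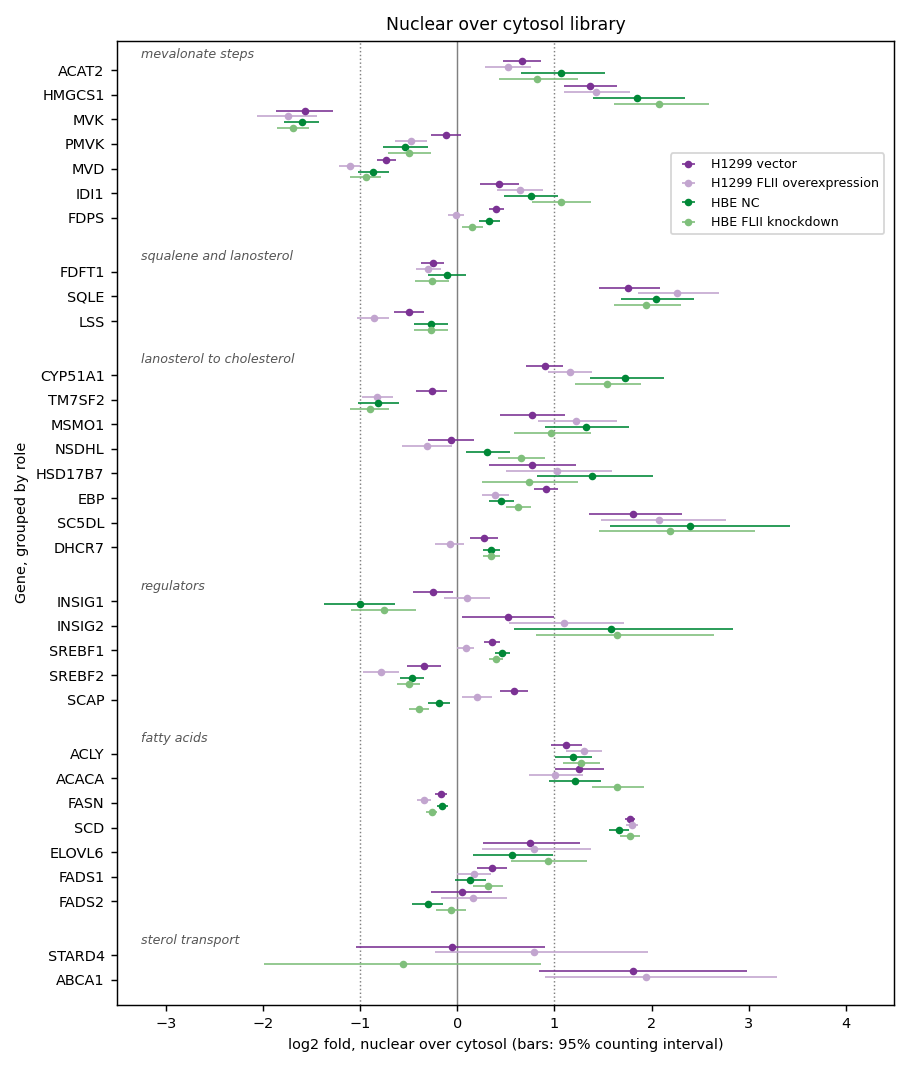
Log2 fold of nuclear over cytosol RNA for each gene in the 4 cell states, grouped by role, for H1299 in purple and HBE in green (controls darker), with bars for the 95% counting interval and dotted lines at −1 and 1. SQLE, SC5DL and SCD lie right of 1 in every cell state and MVK left of −1.

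RNC folds are given by label and carry the doubt stated above. In the pair labelled H1299 5 genes were called higher in the library labelled overexpression, against 26.1% of 14187 genes, and 2 lower, against 23%: ELOVL6 (2.39), SREBF1 (1.46), SREBF2 (1.27), FADS1 (1.13) and FASN (1.11), and MVD (−2.10) and PMVK (−1.38). In the pair labelled HBE 3 were called higher in the library labelled knockdown, MVD (2.12), TM7SF2 (1.71) and PMVK (1.01), against 18.9% of 14703 genes, and 0 lower, against 11.7%. All of these shares are below those of all genes. MVD, for example, was at 177 RPKM in the RNC library labelled H1299 vector, 47.8 in that labelled H1299 overexpression, 39.6 in that labelled HBE NC and 135 in that labelled HBE knockdown. For MVD the library labelled H1299 overexpression thus stood near HBE NC and the library labelled HBE knockdown near H1299 vector. Other genes differed in this. In the same order of libraries PMVK had 85.0, 38.0, 50.4 and 79.6 RPKM, but ACLY had 7.67, 11.2, 73.8 and 36.4. Across the 32 genes the log2 levels of the RNC library labelled H1299 overexpression had a Pearson correlation of 0.870 with H1299 vector cytosol and 0.984 with HBE NC cytosol. The other 3 RNC libraries also had the higher value with HBE NC cytosol. These values were 0.899 and 0.928 for the library labelled H1299 vector, 0.810 and 0.906 for that labelled HBE NC, and 0.867 and 0.921 for that labelled HBE knockdown, as a description over genes of 1 library each.

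Between the RNC libraries labelled H1299 vector and HBE NC 6 genes were called higher in H1299, against 25.6% of all genes, and 10 lower, against 32.8%, led by MVD (3.14) and ACLY (−2.28). RNC over cytosol of H1299 vector gave 10 genes called higher and 1 lower, against 22.2% and 18.1%, led by FADS2 (2.40) and SCAP (2.01). In HBE NC 9 were called higher and 1 lower, against 28.8% and 15.3%, led by ABCA1 (3.01) and ACLY (2.78). FADS2 and ABCA1 were called higher in RNC in both lines, and MVK was called higher in H1299 (1.22) and lower in HBE (−1.40). ABCA1 and STARD4 together had 9 reads in HBE NC cytosol. RNC over cytosol folds followed GC content in opposite directions, with Spearman correlations across the 32 of 0.61 in H1299 and −0.53 in HBE. After removal of that trend 5 of the 11 H1299 calls and 4 of the 10 HBE calls were kept. The part of GC content in these folds was not tested further. The H1299 values turned with the scaling. Under total-count scaling the H1299 median of all genes was −1.37 and that of the 32 was −1.05, in place of 0.30 with TMM, and 8 of the 32 were above 0 in place of 17. Of the 11 H1299 calls 2 then kept their direction and call, 7 fell short, and MVK (−0.13) and SREBF2 (−0.17) were below 0.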

How the data were processed

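Per the file headers, each deposited file pairs 23709 RefSeq genes with a length, a count of reads and an RPKM. The deposited counts are whole numbers, and the authors' RPKM equals the count scaled to gene length and library total, as checked on the values. The submitters' processing notes name GRCh37 and hg19; the aligner and counter are not given there. Libraries were grouped by their titles into 16 groups of 1.

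Counts were compared in 18 pairs of libraries across all genes: 8 FLII pairs, 4 between control libraries of the lines, 4 of nuclear over cytosol and 2 of RNC over cytosol. Libraries were scaled by TMM (edgeR 4.0.16, R 4.3.3) with 0.5 reads added per gene after scaling, and a gene needed 20 summed reads. Intervals are exact conditional binomial (Clopper-Pearson, 95%); for a difference of log2 folds they come from inverse counts. They cover counting error only and are narrowest in deep libraries and abundant genes. No p-value is given because no group has replicates. A gene was typical of a line when every mRNA and nuclear library of that line, and its control cytosol library, had a level of 5 CPM or more, and when those mRNA and nuclear levels were at least 50 times the other line's. GC content and overlapping genes came from GENCODE v29 and promoters from RefSeq. The calculation was tested on simulated data (Python 3.11.15, numpy 2.4.6, scipy 1.17.1, pandas 2.3.3).

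FLII and the 32 genes were named by role, and the 58 further pathway genes where called. The members and lists were chosen with earlier results of these data known. Alternatives were total-count scaling, median of ratios (DESeq2 1.42.0), no minimum beyond 1 read, a minimum of 100 summed reads, 5 reads added, the authors' RPKM (1 added, a minimum of 1 in 1 of the libraries), and removal of the GC trend in 20 bins. Calls on RPKM used the limit of the fold alone and no interval, so their counts follow a looser rule.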

Additional observations from a re-analysis of the deposited data

Results flagged for a closer look

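In 14 cases the intervals of a gene's FLII log2 fold lay on opposite sides of 0 in 2 fractions of the same line; the difference itself was not tested over replicates, since each group is 1 library, and any interval given for one covers counting error alone. In HBE, knockdown over NC was above 0 in mRNA and below 0 in cytosol for IDI1 (1.00 and −0.46, a difference of 1.45), MVD (0.72 and −0.25, 0.97), NSDHL (0.40 and −0.43, 0.83), LSS (0.58 and −0.24, 0.82) and EBP (0.34 and −0.22, 0.56). It was above 0 in mRNA and below 0 in nuclear RNA for MVD (0.72 and −0.33, 1.05), LSS (0.58 and −0.23, 0.82), DHCR7 (0.63 and −0.09, 0.73) and FDPS (0.35 and −0.22, 0.58). SREBF1 went the other way, at −0.36 in mRNA and 0.09 in cytosol, a difference of −0.45.

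In H1299, overexpression over vector was above 0 in cytosol and below 0 in nuclear RNA for EBP (0.22 and −0.20, 0.42), FDPS (0.20 and −0.11, 0.31) and MVD (0.16 and −0.12, 0.27). MVD was also above 0 in mRNA against nuclear RNA (0.20 and −0.12, 0.32). The cytosol and nuclear folds of H1299 followed GC content in opposite directions, with Spearman correlations of 0.79 and −0.61 across the pathway genes. The part of GC content in these differences was not tested.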

How the results depend on the processing

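No paired analysis was possible because the labels carry no replicate numbers and each group is 1 library; for the same reason no replicate could be left out. The median-of-ratios scaling, both read minimums and 5 added reads moved no count of called genes by over 1.5 times, though they shifted several: nuclear over cytosol of H1299 overexpression went from 13 called to 11 with median of ratios or 5 added reads, and the line contrast in cytosol from 10 called (median −0.01) to 8 (−0.29) at 100 summed reads. In HBE mRNA, total-count scaling raised the count called from 5 to 9. For the other comparisons that moved, total-count scaling gave medians of −0.10 for the line contrast in nuclear RNA (−0.34 with TMM), 0.46 in cytosol (−0.01) and −1.02 in RNC (−0.04). It gave nuclear over cytosol medians of 0.75 in H1299 vector (0.42), 0.84 in overexpression (0.30), 0.94 in HBE NC (0.40) and 0.96 in knockdown (0.40), with 13 genes called in place of 8 in H1299 vector and 16 in place of 10 in HBE knockdown. For RNC by label it gave FLII medians of 0.42 in H1299 (0.20) and −0.49 in HBE (−0.14, with 8 called in place of 3), and for RNC over cytosol of H1299 vector −1.05 (0.30), with 17 called in place of 11, 2 of them among the 11. Deposited RPKM gave line medians of −0.44 in mRNA (−0.72), 0.33 in cytosol, −0.12 in nuclear RNA and −0.65 in RNC. It gave nuclear over cytosol medians of 0.72 in H1299 overexpression, 0.90 in HBE NC and 1.04 in HBE knockdown, the last with 16 called. It gave an FLII median of 0.41 in H1299 RNC, 5 called in HBE RNC, a median of −0.82 for RNC over cytosol of H1299 vector and 6 called in place of 10 for that of HBE NC. Removal of the GC trend gave medians of 0.0015 for FLII in H1299 RNC, 0.22 for the line contrast in RNC (with 10 called in place of 16) and 0.68 for nuclear over cytosol of HBE NC. It gave 8 called in place of 13 in H1299 overexpression and 7 in place of 13 in HBE NC for nuclear over cytosol, and 7 in place of 11 for RNC over cytosol of H1299 vector, with 5 of the earlier calls kept in each. Genes called with TMM changed side in 5 cases. MVD did so in nuclear over cytosol of H1299 overexpression (0.16 without the GC trend). In RNC over cytosol of H1299 vector MVK (−0.13 with total counts, −0.12 with RPKM) and SREBF2 (−0.17 and −0.16) did so. Genes without a call changed side too: in the pair labelled HBE RNC 13 of the 32 were above 0 with TMM and 6 with total counts. The cause was not tested. Genes of few reads, ABCA1 and STARD4 above all, had the widest intervals, and in HBE cytosol neither reached 20 reads.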
